A study of Mus musculus with 40 samples.

Results

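The genes described here are the G1/S and DNA replication genes, a set of 46 chosen by name for their known function: they load, activate and run the replication fork, supply nucleotides, drive the step from G1 into S phase, or copy chromatin behind the fork. The set was written with earlier results of these data known. All 46 had a row and an adjusted p-value in the authors' deposited table at both stages, among 13601 genes tested at E18.5 and 13417 at E14.5 (embryonic days). Polyadenylated RNA was sequenced from the forebrain of male mouse embryos. At each stage the study compared KI embryos, which carry an added copy of Chd8 per the series' title, with wild-type (WT) embryos, in 5 libraries per genotype. Chd8 encodes a chromatin remodeler whose gene is often mutated in autism. The strain and the site of the added copy are not given in the sources used here, no further allele or treatment is labelled in either genotype, and the labels do not say whether libraries came from separate litters. The p-values therefore measure the spread between these libraries.

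A cell enters S phase when E2F transcription factors, freed from the retinoblastoma protein by cyclin-dependent kinases, switch on the genes of DNA synthesis. The origin recognition complex, CDC6 and CDT1 load the MCM2-7 helicase onto DNA in G1, and CDC45 and the GINS complex turn it into a working helicase in S phase. In the embryonic forebrain these genes are used by dividing progenitors (radial glia and intermediate progenitors, and later the precursors of glia), whereas neurons have left the cycle. The RNA is bulk RNA, so fewer dividing cells and less RNA per dividing cell cannot be told apart.

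The values are the authors' comparison of KI with WT. The authors' deposited table gives for each gene a mean normalized count over all libraries of a stage, a log2 fold change with its standard error (SE), a p-value and a p-value adjusted over all genes tested. No value per library was available, so sequencing depth per library, values per embryo and their SD cannot be given, and the error beside each value is the authors' SE. A gene was called changed when its adjusted p was under 0.05. The headers do not name the numerator of the fold change. Its direction was read from Chd8 itself, whose log2 fold change in the authors' deposited table was 0.51 (SE 0.038) at E18.5 and 0.64 (SE 0.031) at E14.5, so that a positive value means higher in KI and Chd8 is no independent check of the labels. The forebrain markers Neurod6, Dlx1 and Eomes were present at both stages with mean normalized counts of 9234, 1899 and 960 at E18.5 by the authors' deposited table. The liver genes Alb and Afp had no row. Apoa1 of liver and Myh3 and Actc1 of muscle had mean normalized counts of 3.04, 5.10 and 1.94 at E14.5 in the authors' deposited table. Of these, Myh3 alone had a row at E18.5, with 12.3.

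A part of these genes carried an E2F word near an annotated start of transcription. The choice of genes did not read promoters, but it used a function that E2F factors switch on. The share of genes with the word is therefore no independent finding about the set. The RefSeq table (GRCm38.p6, to which mm10 corresponds) held windows of 300 bases around annotated starts, 250 before and 50 after, for 36 of the 46 genes, with 42 windows in all since some genes have more than 1 start. Gmnn, Mcm4, Gins1, Gins2, Gins4, Prim2, Pole, Rfc2, Pif1 and Ccne2 had no entry. The E2F words TTTCCCGC, TTTCGCGC, TTTGCCGC and TTTGGCGC, searched on both strands, occurred in a window of 14 of the 36 genes (38.9%) and in none of the windows of the other 22, against 4.80% of 10241 genes tested at both stages. Counted over windows the shares were 33.3% of 42 against 3.94% of 13185. The same words were found for 31.0% of 58 other G1/S and replication genes and for 7.69% of 13 G2/M genes. The words that follow were also searched on both strands. The NF-Y word CCAAT was present for 66.7% of the 36 genes against 43.3% of genes tested, and the Sp word GGGCGG for 77.8% against 70.6%. The CHR word TTTGAA, an element of G2/M promoters, was present for 13.9% of the 36 genes, against 13.7% of genes tested and 76.9% of the G2/M genes. A match describes letters in this window and does not show that a factor binds there.

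The 4 windows printed here are those of the genes with an E2F word and the lowest unadjusted p at either stage, shown because they place that word in genes whose values are described afterwards. They run 5′ to 3′ on the strand of the gene, with the E2F word (or its reverse complement) in capitals.
E2f2 (chr4:136172024-136172323, + strand): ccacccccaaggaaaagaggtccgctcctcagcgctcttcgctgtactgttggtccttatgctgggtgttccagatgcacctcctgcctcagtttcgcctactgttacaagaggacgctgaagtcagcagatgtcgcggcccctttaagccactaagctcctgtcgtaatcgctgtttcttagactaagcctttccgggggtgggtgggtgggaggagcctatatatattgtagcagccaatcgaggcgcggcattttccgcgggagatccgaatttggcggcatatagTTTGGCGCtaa
Cdc6 (chr11:98907901-98908200, + strand): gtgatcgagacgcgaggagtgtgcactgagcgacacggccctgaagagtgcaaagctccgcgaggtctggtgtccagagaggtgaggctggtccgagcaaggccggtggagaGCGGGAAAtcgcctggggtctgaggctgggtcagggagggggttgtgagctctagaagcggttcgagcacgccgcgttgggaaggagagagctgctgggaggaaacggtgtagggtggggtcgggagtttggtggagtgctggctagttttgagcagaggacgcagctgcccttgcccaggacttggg
Lig1 (chr7:13278576-13278875, + strand): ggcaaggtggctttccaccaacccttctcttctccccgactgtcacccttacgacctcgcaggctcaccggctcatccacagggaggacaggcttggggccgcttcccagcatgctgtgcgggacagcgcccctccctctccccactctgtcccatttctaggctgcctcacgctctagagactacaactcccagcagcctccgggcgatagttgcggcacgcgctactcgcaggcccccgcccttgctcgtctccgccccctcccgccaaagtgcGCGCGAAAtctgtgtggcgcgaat
Uhrf1 (chr17:56304063-56304362, + strand): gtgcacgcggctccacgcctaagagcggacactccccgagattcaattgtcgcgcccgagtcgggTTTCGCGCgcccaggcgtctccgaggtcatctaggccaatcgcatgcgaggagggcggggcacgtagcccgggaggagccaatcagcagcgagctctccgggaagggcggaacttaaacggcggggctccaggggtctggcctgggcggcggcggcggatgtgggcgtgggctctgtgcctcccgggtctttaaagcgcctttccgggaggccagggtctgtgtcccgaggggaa
Counted from the start of its own window's transcript, the word began at 40 in E2f2, 27 in Lig1, −138 in Cdc6 and −185 in Uhrf1. The start used in E2f2 is the first base of the annotated gene, whereas those of Cdc6, Lig1 and Uhrf1 lie 442, 1651 and 976 bases inside it, so these windows belong to internal starts. Another window of E2f2 and of Uhrf1, and 2 of Lig1, held no E2F word and are not printed. The windows of Mcm5 and Mcm6, which are not printed, held words on opposite strands that overlapped each other. The E2f2 and Uhrf1 windows also held CCAAT, and the Lig1 and Uhrf1 windows GGGCGG (in Lig1 as its reverse complement). None of the 4 held TTTGAA on either strand. On the log2 scale the 14 genes with an E2F word had a median fold change of −0.091 at E18.5 and 0.066 at E14.5, and the 22 without had −0.072 and 0.018. The difference between these medians was not tested.

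At E18.5 most replication genes were slightly lower in KI than in WT forebrain, and no gene of the set passed the test. None of the 46 was called, with a background of 0.0662% of all genes tested (9 of 13601). By unadjusted p under 0.05, 12 of the 46 (26.1%) were lower in KI and 0 were higher, while over all genes 2.82% were lower and 3.13% higher at that cutoff. Of the 46, 36 (78.3%) lay below 0, against 51.2% of all genes. The median log2 fold change was −0.098, against −0.002 over all genes tested. Genes of one process vary together across libraries, and the gene lists were written with earlier results of these data known. These shares therefore describe the set and are no test of it.

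**Figure D1:**
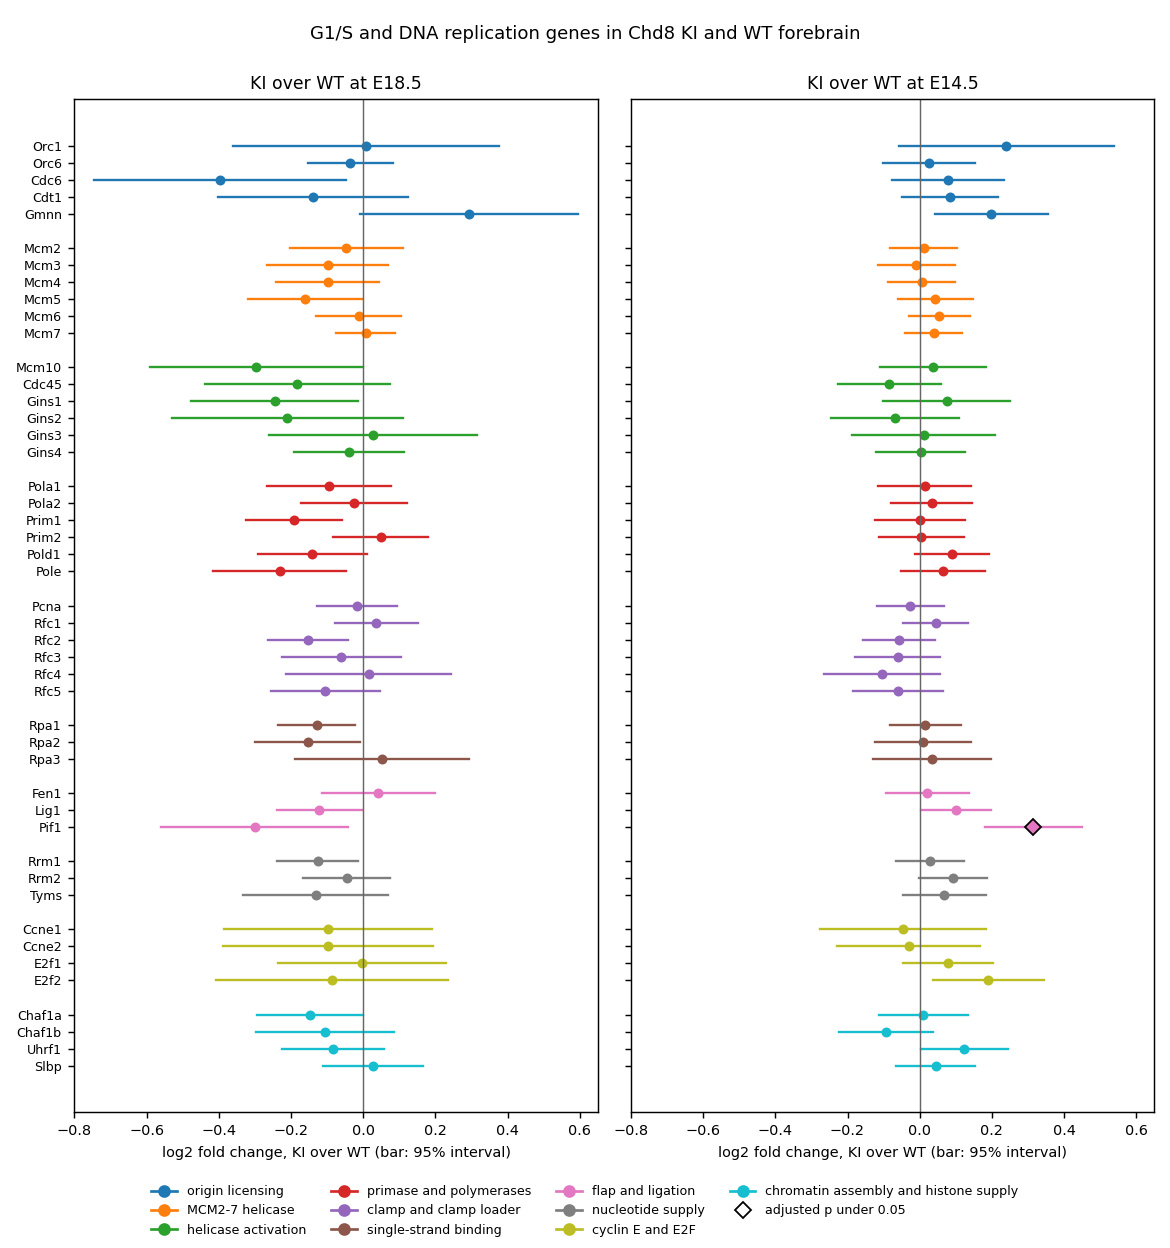
The log2 fold change of KI over WT with its 95% interval is plotted for each of the 46 genes, at E18.5 on the left and E14.5 on the right, coloured by role. At E18.5, 36 points lie left of 0 and no gene passed an adjusted p of 0.05. At E14.5, 34 points lie right of 0 and Pif1 is the gene that passed (diamond).

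Among the genes that license origins, Cdc6 had the lowest value of the whole set at E18.5. Cdc6, an ATPase that loads the helicase (chromosome 11, 98907709 to 98923942), stood at −0.40 in the authors' deposited table (SE 0.18, unadjusted p = 0.0265, adjusted p = 0.773). That is a difference of −24.0% with a 95% interval of −40.4% to −3.16%, at a mean normalized count of 83.9 by the authors' deposited table. Cdt1, the partner of CDC6 in loading, was at −0.14 (SE 0.13) in the authors' deposited table, and Orc6 and Orc1, subunits of the origin recognition complex, were at −0.036 (SE 0.060) and 0.009 (SE 0.19). Gmnn encodes geminin, the inhibitor of CDT1, and was the highest of the 46 at 0.29 (SE 0.15, unadjusted p = 0.0564) by the authors' deposited table. The loader Cdc6 and the inhibitor Gmnn thus lay at opposite ends of the set, each with a wide interval and neither called.

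The MCM2-7 helicase genes were near 0 or below it. Mcm5 was the lowest at −0.16 (SE 0.081, unadjusted p = 0.0439) by the authors' deposited table, and Mcm7, the gene with the highest mean normalized count of the 46 (1992), had the highest value at 0.007 (SE 0.042). The other subunit genes (Mcm2, Mcm3, Mcm4 and Mcm6) lay between −0.099 and −0.012 in the authors' deposited table. Genes that activate the loaded helicase stood lower than any other role, with a median of −0.20. Mcm10, which binds the loaded helicase and is needed for its activation, was at −0.30 (SE 0.15, unadjusted p = 0.0501) by the authors' deposited table. Gins1, a subunit of the GINS complex, was at −0.24 (SE 0.12, unadjusted p = 0.0384) by the authors' deposited table. The other GINS genes and Cdc45 ranged in the authors' deposited table from −0.21 (Gins2) to 0.027 (Gins3).

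Of the genes that prime and extend DNA, Prim1 had the lowest unadjusted p of the set at E18.5. It encodes the catalytic subunit of primase (chromosome 10, 128015215 to 128030030) and stood at −0.19 in the authors' deposited table (SE 0.068, unadjusted p = 0.00487, adjusted p = 0.518). The difference was −12.4% with a 95% interval of −20.2% to −3.96%. Prim2, the other primase subunit, was at 0.048 (SE 0.068) in the authors' deposited table, so the 2 subunits of the enzyme lay on opposite sides of 0. Pole, the catalytic subunit of the leading-strand polymerase, was at −0.23 (SE 0.094, unadjusted p = 0.0134) by the authors' deposited table. Pold1, its counterpart on the lagging strand, was at −0.14 (SE 0.077), and Pola1 and Pola2 of the priming polymerase were at −0.095 (SE 0.088) and −0.026 (SE 0.075) in the authors' deposited table.

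The clamp gene Pcna, whose ring holds polymerases on DNA, was at −0.017 (SE 0.057) in the authors' deposited table. Pcna has a processed pseudogene, and how reads that match more than 1 place were counted is not given in the sources used here. Of the genes of the clamp loader, Rfc2 was at −0.15 (SE 0.056, unadjusted p = 0.00690) and Rfc1 at 0.037 (SE 0.058) in the authors' deposited table. The single-strand binding genes Rpa1 and Rpa2 stood at −0.13 (SE 0.054, unadjusted p = 0.0176) and −0.15 (SE 0.074, unadjusted p = 0.0375), and Rpa3, the smallest subunit, at 0.051 (SE 0.12), in the authors' deposited table. For flap removal and ligation, Lig1, the ligase that seals lagging-strand fragments, was at −0.12 (SE 0.060, unadjusted p = 0.0425) by the authors' deposited table. Fen1, the flap nuclease, was at 0.042 (SE 0.079) in the authors' deposited table. Pif1, a DNA helicase that in budding yeast lengthens flaps and unwinds G-quadruplexes (chromosome 9, 65587150 to 65595967), was at −0.30 (SE 0.13, unadjusted p = 0.0233, adjusted p = 0.770) by the authors' deposited table.

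The genes of nucleotide supply were all below 0. Rrm1, the large subunit of ribonucleotide reductase, was at −0.13 (SE 0.057, unadjusted p = 0.0269) by the authors' deposited table, Tyms, which makes thymidylate, at −0.13 (SE 0.10), and Rrm2, the small subunit, at −0.046 (SE 0.061). The regulators of S-phase entry, cyclin E (Ccne1 and Ccne2) and the activating factors E2f1 and E2f2, lay between −0.098 (Ccne1) and −0.003 (E2f1) in the authors' deposited table, with SEs of 0.12 to 0.16. For chromatin behind the fork, Chaf1a, a subunit of the histone chaperone CAF-1, was at −0.15 (SE 0.075, unadjusted p = 0.0491) by the authors' deposited table. Uhrf1, which brings the maintenance DNA methyltransferase to new DNA, was at −0.083 (SE 0.072), and Slbp, which binds the end of histone messages, at 0.027 (SE 0.070), in the authors' deposited table.

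None of these Wald statistics reached the size of those that were called. The smallest Wald statistic among called genes at E18.5 was 4.21, which at the members' median SE of 0.080 corresponds to a log2 fold change of 0.338, or a fall of 20.9%. The size needed varied with the SE of a gene, from 0.175 to 0.790 over the 46. Of the 46 genes, 34 had a 95% interval that included 0, and 8 had a mean normalized count under 100.

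At E14.5 the set leaned the other way by less, and Pif1 alone among the 46 was called. Pif1 rose in KI, with a log2 fold change of 0.31 in the authors' deposited table (SE 0.069, adjusted p = 0.00187 by the authors' DESeq2 Wald test with Benjamini-Hochberg adjustment). It was 24.4% higher in KI than in WT, with a 95% interval of 13.3% to 36.6%, at a mean normalized count of 540.0 by the authors' deposited table. With the null of the test estimated from the spread of all Wald statistics, its adjusted p was 0.0635 and the call ended. In all, 1 of the 46 genes was called, with a background of 1.21% of all genes tested (162 of 13417). By unadjusted p under 0.05, 5 of the 46 (10.9%) were higher in KI and 0 lower, while over all genes 6.26% were higher and 5.28% lower. Of the 46, 34 (73.9%) lay above 0, against 49.8% of all genes. The median was 0.027, against −0.0005 over all genes.

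**Figure D2:**
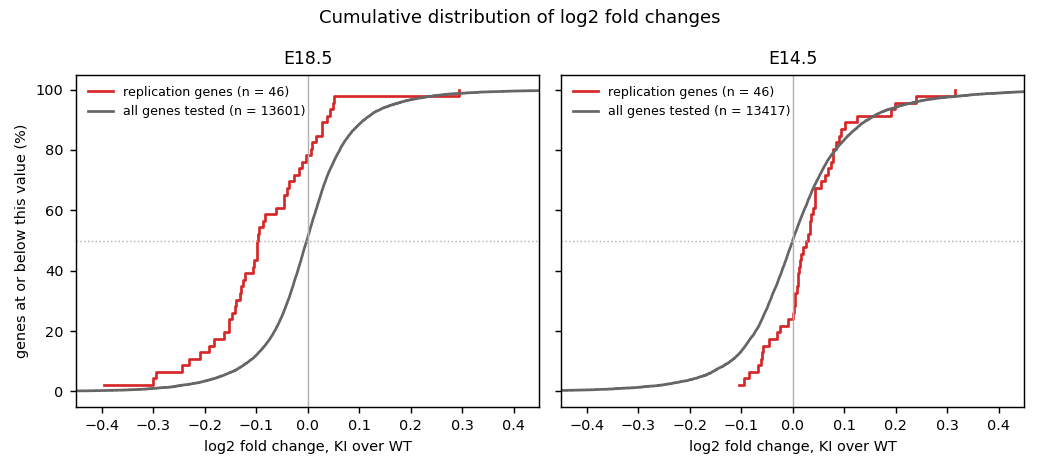
The share of genes at or below each log2 fold change of KI over WT is plotted for the 46 replication genes (red) and all genes tested (grey), at E18.5 on the left and E14.5 on the right. At E18.5 the red curve crosses 50% at −0.098, and at E14.5 at 0.027.

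The genes besides Pif1 with an unadjusted p under 0.05 at E14.5 came from different roles. Gmnn stood at 0.20 (SE 0.080, unadjusted p = 0.0130, adjusted p = 0.243) by the authors' deposited table, positive as at E18.5. E2f2, an activating E2F, was at 0.19 (SE 0.078, unadjusted p = 0.0150) by the authors' deposited table. Lig1 was at 0.10 (SE 0.049, unadjusted p = 0.0397) and Uhrf1 at 0.12 (SE 0.061, unadjusted p = 0.0436) by the authors' deposited table. None of these 4 genes was called.

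By role, all 5 genes of origin licensing, which include the inhibitor Gmnn, lay above 0 at E14.5, with a median of 0.083. Orc1 was the highest of them at 0.24 and the least precise (SE 0.15, mean normalized count 124) in the authors' deposited table, and Orc6 the lowest at 0.025 (SE 0.065). The MCM2-7 genes were close to 0, from −0.009 (Mcm3, SE 0.055) to 0.054 (Mcm6, SE 0.043) in the authors' deposited table. Helicase activation genes ranged from −0.085 (Cdc45, SE 0.073) to 0.075 (Gins1, SE 0.090), and primase and polymerase genes from −0.00001 (Prim1, SE 0.064) to 0.089 (Pold1, SE 0.053), in the authors' deposited table. Prim1 was thus level between the genotypes at E14.5 to within its interval of −8.27% to 9.02%.

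The clamp and clamp loader genes were the exception to the lean, with 5 of 6 below 0 and a median of −0.059 at E14.5. Rfc4 was the lowest of all 46 at −0.10 (SE 0.082), and Rfc1 the one above 0 at 0.044 (SE 0.046), in the authors' deposited table. The single-strand binding genes lay between 0.009 (Rpa2) and 0.033 (Rpa3), and Fen1 was at 0.020 (SE 0.059), in the authors' deposited table. The nucleotide genes ran from 0.029 (Rrm1, SE 0.048) to 0.093 (Rrm2, SE 0.048) in the authors' deposited table. Ccne1 was the lowest of the cyclin E and E2F genes at −0.046 (SE 0.12), and Chaf1b the lowest of the chromatin genes at −0.094 (SE 0.066), in the authors' deposited table. The smallest Wald statistic called at E14.5 was 3.43, which at the members' median SE of 0.063 corresponds to a log2 fold change of 0.216, or a rise of 16.1%.

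The difference between the stages was tested gene by gene, subtracting the E14.5 log2 fold change from that of E18.5, with a z test on the summed squared SEs. The libraries of the stages are separate. None of the 46 genes passed after adjustment, nor did any of 13106 genes tested at both stages, so percent called was 0. By unadjusted p under 0.05, 11 of the 46 (23.9%) had a difference below 0 and 0 above, while over all genes 2.2% were below and 2.33% above. The median difference was −0.096, against −0.001 over all genes, and 38 of the 46 (82.6%) were below 0, against 50.4%. In all, 25 of the 46 (54.3%) were below 0 at E18.5 and above 0 at E14.5, a pattern of 21.5% of all genes.

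Pif1 had the largest difference of the 46. It was at −0.30 at E18.5 and 0.31 at E14.5 in the authors' deposited table, a difference of −0.61 (SE 0.15, 95% interval −0.91 to −0.32, unadjusted p = 3.76e-05, adjusted p = 0.350). Cdc6 had a difference of −0.47 (SE 0.20, unadjusted p = 0.0153) and Mcm10 of −0.33 (SE 0.17, unadjusted p = 0.0488). For Gins1 it was −0.32 (SE 0.15, unadjusted p = 0.0314). The other genes past that unadjusted cutoff act at the fork, in nucleotide supply or in methylation of new DNA. Pole, Pold1 and Prim1 had differences of −0.29, −0.23 and −0.19 (SE 0.11, 0.093 and 0.093). Lig1, Uhrf1, Mcm5 and Rrm1 had −0.22, −0.21, −0.21 and −0.16 (SE 0.077, 0.094, 0.096 and 0.074). All had adjusted p-values of 0.997 or more apart from Pif1. Gmnn was positive at both stages, and its difference of 0.095 had a 95% interval of −0.24 to 0.44. Across the 46 genes the values at the 2 stages showed little likeness, with Pearson's r = 0.024 and Spearman's rho = 0.030 (0.20 and 0.099 without Pif1), as a description over genes that share libraries.

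**Figure D3:**
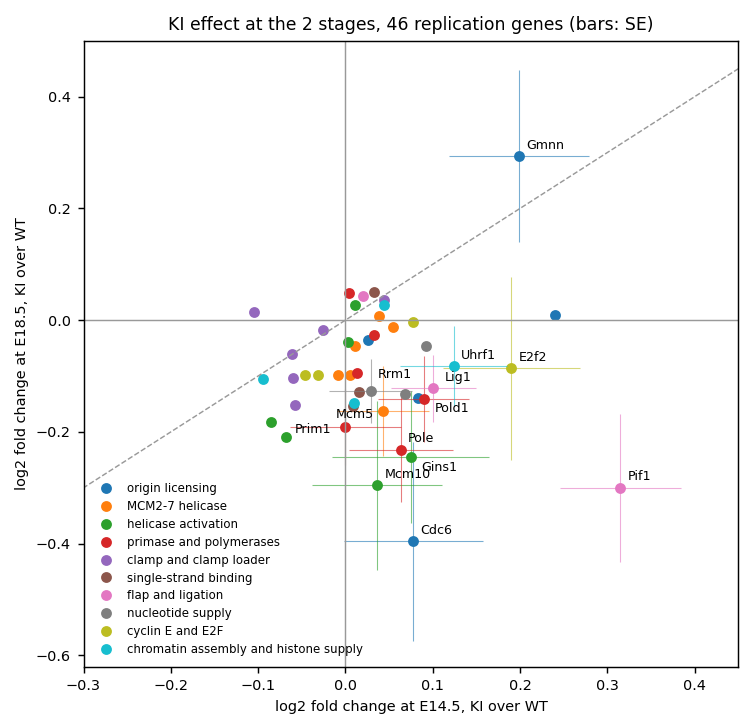
The log2 fold change of KI over WT at E18.5 (vertical) is plotted against that at E14.5 (horizontal) for the 46 genes, coloured by role, with SE bars and names for genes with an unadjusted p under 0.05 at E14.5 or for the stage difference. The lower right part of the plot, below 0 at E18.5 and above 0 at E14.5, holds 25 genes, with Pif1 farthest from the dashed line of equal values.

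Between the stages the whole set dropped in level in the tissue. The mean normalized count, pooled over KI and WT, was lower at E18.5 than at E14.5 for all 46 genes, while 42.1% of all genes were lower. The median gene stood at 39.8% of its E14.5 level, against 106.7% over all genes. The span ran from 20.1% (E2f2) and 20.2% (Cdc6) to 82.4% (Orc6). Related lists also dropped, with medians of 22.1% (G2/M genes), 22.6% (intermediate progenitor markers) and 50.5% (75 other G1/S and replication genes). Markers of neurons had a median of 184.3% and those of oligodendrocyte precursors 628.5%. The tables of the stages were normalized separately, so these levels are a description with no test. As a share of all summed mean normalized counts the 46 genes were 0.110% at E18.5 and 0.303% at E14.5. The clamp and clamp loader genes kept more of their level than the rest (median 63.1%) and the nucleotide genes the least (28.7%), a description with no test. The lowest mean normalized counts in the authors' deposited table were those of Orc1, 59.7 at E18.5 and 124 at E14.5, and the highest those of Mcm7, 1992 at E18.5 and 4561 at E14.5. These counts are not per length, so genes cannot be ranked by abundance of message.

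**Figure D4:**
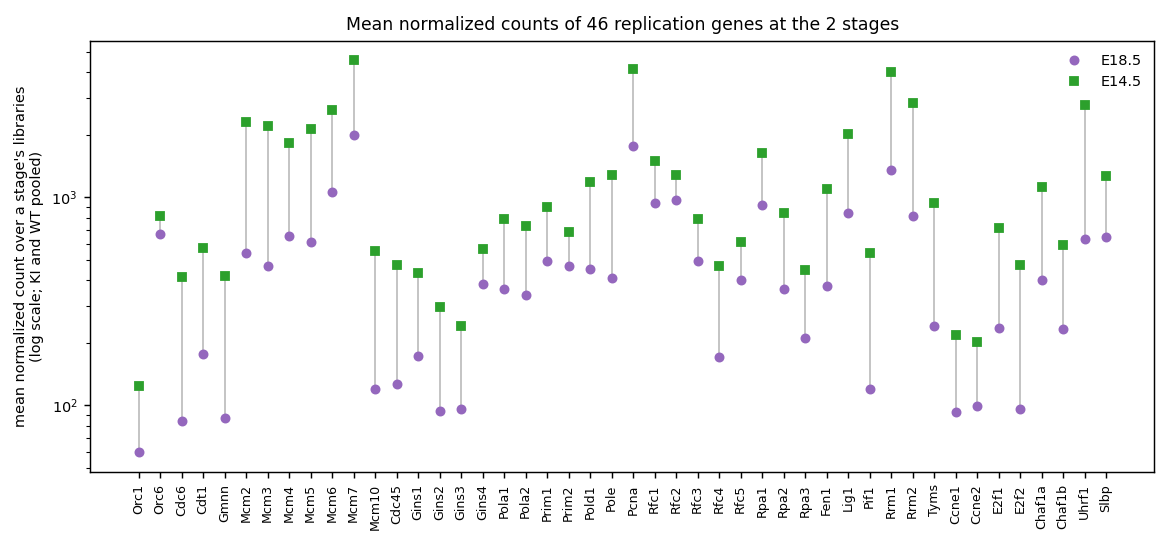
Mean normalized counts of the 46 genes, pooled over KI and WT, are plotted on a log axis at E18.5 (circles) and E14.5 (squares). Every circle lies below its square, from 20.1% of it in E2f2 to 82.4% in Orc6.

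A further 75 genes of G1/S control and replication showed a smaller lean at E18.5. None was called at E18.5 (with 4 higher and 6 lower in KI at an unadjusted p under 0.05 by the authors' DESeq2 test, 5.33% and 8% of the 75 against 3.13% and 2.82% of all genes). Of the 75, 46 lay below 0 (61.3%, against 51.2%), and the median was −0.024. The lowest unadjusted p-values belonged to Nasp, a histone chaperone, at 0.11 (SE 0.033, adjusted p = 0.184), Cdkn1b, which encodes the cell cycle inhibitor p27, at 0.12 (SE 0.046, adjusted p = 0.640), and Chtf18, part of an alternative clamp loader, at −0.34 (SE 0.14, adjusted p = 0.673), by the authors' deposited table. At E14.5, 4 of the 75 were called (5.33%), all of them higher in KI. Over all genes 1.21% were called in either direction, with 99 of 13417 higher and 63 lower. Of the 75, 45 lay above 0 (60.0%, against 49.8%), with a median of 0.022. By unadjusted p under 0.05, 8 were higher (10.7%, against 6.26%) and 0 lower (against 5.28%). Tk1, the thymidine kinase of S phase, rose by 0.35 (SE 0.080, adjusted p = 0.00266), which was 27.9% above WT, in the authors' deposited table. Timeless, a fork protection gene, rose by 0.24 (SE 0.054, adjusted p = 0.00357) and Ccnd1, a cyclin of G1, by 0.18 (SE 0.046, adjusted p = 0.0138), by the authors' deposited table. Nasp rose by 0.13 (SE 0.037, adjusted p = 0.0350) by the authors' deposited table. All 4 calls ended with the estimated null of the test, at adjusted p-values of 0.0767 for Tk1, 0.0898 for Timeless, 0.186 for Ccnd1 and 0.321 for Nasp. At E18.5 Tk1 stood at 0.33 (SE 0.15, unadjusted p = 0.0241), Timeless at 0.056 (SE 0.094) and Ccnd1 at 0.007 (SE 0.069) in the authors' deposited table. All 4 genes called at E14.5 were thus above 0 at both stages, Timeless and Ccnd1 by less than their SE at E18.5. Of the 75, 24 (32%) were above 0 at both stages, against 27.9% of all genes.

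Markers of dividing cells and of other cell types are given here beside the replication genes. No G2/M, radial glia, intermediate progenitor, oligodendrocyte precursor, endothelial or microglial marker was called at either stage. All 15 G2/M genes lay below 0 at E18.5 (median −0.12) and 14 of 15 above 0 at E14.5 (median 0.045). The proliferation marker Mki67 was at −0.17 (SE 0.052, adjusted p = 0.266) at E18.5 and 0.033 (SE 0.046) at E14.5, and Top2a at −0.087 (SE 0.066) and 0.034 (SE 0.047), in the authors' deposited table. Radial glia markers were below 0 in 8 of 10 at E18.5 (median −0.070) and in 6 of 10 at E14.5 (median −0.010), with Sox2 at 0.047 (SE 0.052) and 0.16 (SE 0.060) and Pax6 at 0.076 (SE 0.064) and −0.009 (SE 0.042) in the authors' deposited table. Sox2 and Pax6 are the 2 markers above 0 at E18.5, and the lowest of the other 8, chosen after its values were seen, was Fabp7 at −0.12 (SE 0.047, unadjusted p = 0.0100) in the authors' deposited table. The highest at E14.5, also chosen after its values were seen, was Hes1 at 0.23 (SE 0.079, unadjusted p = 0.00389) in the authors' deposited table. By unadjusted p under 0.05, 2 of the 10 were higher in KI at E14.5 (20%, against 6.26% of all genes) and 0 lower (against 5.28%). All 5 markers of oligodendrocyte precursors, which divide at the later stage, were below 0 at E18.5 (median −0.19), with Olig1 at −0.22 (SE 0.060, adjusted p = 0.141) and Olig2 at −0.19 (SE 0.072, adjusted p = 0.598) by the authors' deposited table. At E14.5, 3 of the 5 were below 0 (median −0.046). Olig1 at 0.043 (SE 0.11) and Olig2 at 0.23 (SE 0.078) were the 2 above 0 in the authors' deposited table. Intermediate progenitor markers were above 0 in 2 of 4 tested at E18.5 (median 0.021) and in 4 of 5 at E14.5 (median 0.032), with Eomes at −0.13 (SE 0.14) and 0.020 (SE 0.032) and Insm1 at −0.015 (SE 0.075) and −0.058 (SE 0.048) in the authors' deposited table. At E18.5 the markers above 0 were Neurog2 at 0.098 (SE 0.090) and Gadd45g at 0.056 (SE 0.093), named after their values were seen, in the authors' deposited table.

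Neuronal markers leaned opposite to the replication genes at both stages. Of 10 markers 9 lay above 0 at E18.5 (median 0.030) and 8 below 0 at E14.5 (median −0.030), with Tubb3 at 0.020 (SE 0.032) and −0.030 (SE 0.038) and Dcx at 0.030 (SE 0.032) and −0.029 (SE 0.031) in the authors' deposited table. Neurod6, a factor of excitatory cortical neurons, fell at E14.5 by 0.20 (SE 0.046, adjusted p = 0.00438) by the authors' deposited table. GABAergic lineage markers were above 0 in 5 of 5 at both stages (medians 0.076 at E18.5 and 0.081 at E14.5), with Gad1 at 0.15 (SE 0.066) and 0.077 (SE 0.065) and Gad2 at 0.12 (SE 0.051) and 0.081 (SE 0.057) in the authors' deposited table. Dlx1 of that lineage rose at E14.5 by 0.17 (SE 0.047, adjusted p = 0.0369) by the authors' deposited table. Blood genes were above 0 in 4 of 4 tested at E14.5 (median 0.50), where the embryonic globin genes Hbb-y and Hba-x rose by 0.50 (SE 0.068, adjusted p = 1.64e-09) and 0.59 (SE 0.15, adjusted p = 0.0118) by the authors' deposited table. Globin genes have close paralogs that can share reads. In size the Wald statistics of Neurod6 (−4.28), Dlx1 (3.55) and Hba-x (3.98) were below that of Timeless (4.35) at E14.5 in the authors' deposited table. The call of Timeless ended with the estimated null of the test. Adjusted p-values of these markers under that null are not given here. The adult globin gene Hba-a1 stood at 0.28 (SE 0.36) at E18.5 and 0.45 (SE 0.39) at E14.5 in the authors' deposited table. Endothelial markers had medians of 0.002 at E18.5 and −0.012 at E14.5, with Cldn5 at 0.023 (SE 0.089) and −0.042 (SE 0.078) and Pecam1 at −0.019 (SE 0.11) and 0.025 (SE 0.084) in the authors' deposited table. Microglial markers had medians of 0.15 at E18.5 and 0.036 at E14.5, with Cx3cr1 at 0.033 (SE 0.17) and −0.22 (SE 0.12) and Csf1r at 0.15 (SE 0.14) and 0.12 (SE 0.094) in the authors' deposited table. The part of these cell types in the values of the replication genes was not tested.

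**Figure D5:**
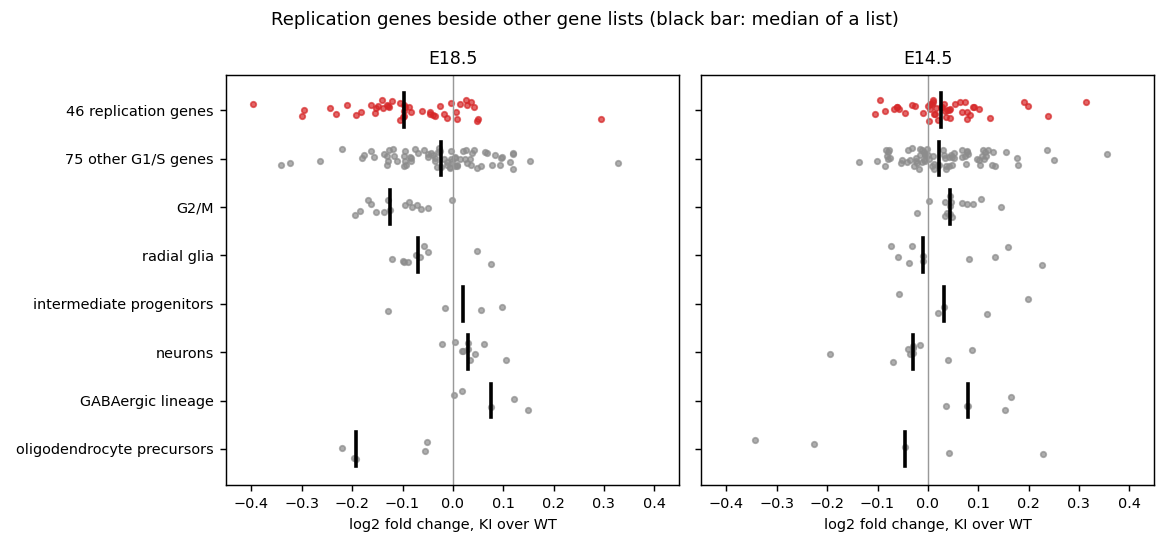
Each point is the log2 fold change of KI over WT of 1 gene, at E18.5 on the left and E14.5 on the right, for the 46 replication genes (red), 75 other G1/S genes and 6 marker lists, and black bars mark medians. At E18.5 the bars of the replication genes (−0.098), G2/M genes (−0.12) and oligodendrocyte precursors (−0.19) lie left of 0, and that of neurons (0.030) right of it.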

How the data were processed

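The authors made both tables from RNA sequencing of 5 KI and 5 WT forebrain libraries per stage. The submitters' processing notes list DESeq2 1.26.0, featureCounts 2.0.0, HISAT2 2.1.0, Trimmomatic 0.39 and the build mm10, with no role or order. Per the file headers each deposited table gives by NCBI gene ID a mean normalized count (a signal averaged over all libraries of a stage), a log2 fold change with its SE, the Wald statistic as a score, and p-values before and after adjustment. The deposited score equalled the log2 fold change over its SE, and the deposited adjusted p the Benjamini-Hochberg adjustment over genes that have one. The authors' tables hold no value per library, so depth per sample is unknown and precision is the SE. The chromatin immunoprecipitation and ATAC libraries were not analysed here.

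From these values 95% intervals (log2 fold change ± 1.96 SE), medians, counts and the z test between stages were computed with Python 3.11.15, numpy 2.4.6, pandas 2.3.3 and scipy 1.17.1, and the z test was tested on simulated data. Symbols, coordinates and promoters came from RefSeq tables of GRCm38.p6, where 15064 of 15449 IDs matched at E18.5 and 17192 of 17940 at E14.5. The RefSeq gene length is the span on the genome, so the planned level per length was not computed.

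The 46 genes, their roles, the 75 other genes and the marker lists were written from general knowledge, with earlier results of these data known. Genes named by value are members with an unadjusted p under 0.05, the extremes of each role and of level, other replication genes that were called or had the 3 lowest p-values at a stage, and the first 2 and any called genes of each marker list. Other members that are named complete a role. Alternatives were no filter on low values, a minimum mean normalized count of 100, an empirical null, the Benjamini-Yekutieli adjustment, centring on the median of all genes, a weighted mean, and leaving out cyclin E and E2F genes.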

Additional observations from a re-analysis of the deposited data

How the results depend on the processing

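The call of Pif1 at E14.5 depended on the null of the test. With the Wald statistics centred and scaled by their own spread (scale 1.22, an empirical null), 0 of the 46 genes passed and its adjusted p was 0.0635, within a range of 0.00164 to 0.0635 over the alternatives. Tk1, Timeless, Ccnd1 and Nasp then had adjusted p-values of 0.0767, 0.0898, 0.186 and 0.321, and Ccnd1 and Nasp had 0.139 and 0.353 with the Benjamini-Yekutieli adjustment. Over all genes at E14.5, 31 passed with the empirical null and 56 with Benjamini-Yekutieli, in place of 162. At E18.5 over all genes, 19 passed with the empirical null, 14 with the minimum count of 100 and 4 with Benjamini-Yekutieli, in place of 9. With the empirical null 14 of the 46 genes at E18.5 and 3 at E14.5 had a p under 0.05, in place of 12 and 5. The count of called members at E18.5 and for the stage difference was 0 under each alternative, and Pif1's adjusted p for the stage difference ranged from 0.101 to 1.0. The median of the 46 stayed between −0.0983 and −0.0959 at E18.5 and between 0.0270 and 0.0275 at E14.5. The mean of the 46 weighted by 1 over SE squared was −0.073 at E18.5 and 0.033 at E14.5. No paired analysis was possible because the tables hold no value per library, and for the same reason no library was left out and no call can be tied to a single embryo. The SEs were 0.15 to 0.19 at E18.5 for Orc1, Cdc6 and Gmnn, genes with mean normalized counts under 100, and whether few reads or the spread between embryos sets them was not tested.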

Other observations

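Genes of the meninges and choroid plexus, tissues that border the forebrain, stood apart at E18.5 by the authors' deposited table. All 5 meninges markers and 4 of 5 choroid plexus markers (Ttr, Folr1, Clic6 and Kcne2) had a row without a p-value there, with SEs above 1 on the log2 scale. Ttr, the transthyretin gene of the choroid plexus, averaged 2718 normalized counts at E18.5 and 5.76 at E14.5, with log2 fold changes of 0.27 (SE 1.88) and −0.32 (SE 1.21), in the authors' deposited table. The collagen gene Col1a1 had mean normalized counts of 252 at E18.5 and 16.2 at E14.5, with log2 fold changes of −0.20 (SE 1.44) and 0.76 (SE 0.39), in the authors' deposited table. Col1a2 stood at 0.14 (SE 1.15) at E18.5 and 0.61 (SE 0.21) at E14.5 in the authors' deposited table. Which libraries carry these counts cannot be read from the tables, and no adjusted p was available for these genes at E18.5.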
